A study of Mus musculus with 10 samples.

Results

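Myc-CaP is a prostate cancer line of the mouse, and its open chromatin in the untreated state is described here from the group Ctrl, 2 of the 10 libraries of an ATAC-seq series. The authors pooled the libraries of each of 5 groups before calling, so these cells are represented by 1 of 5 deposited peak lists, chosen by its label alone. The other groups received oxaliplatin, cisplatin, interferon-γ or oxaliplatin with interferon-γ and were not used. The Ctrl cells carry the labels Myc-CaP, FVB/NJ background and male, received no agent, and were harvested at 48 h with the others. All values come from 1 cell line grown in serum-containing medium, and whether the 2 libraries were separate cultures was not given in the sources used here. A pooled list has no spread between replicates, so values are given as measured, without a standard deviation or a test, and shares carry 95% Wilson intervals that cover counting error only.

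In ATAC-seq a transposase inserts sequencing adapters where DNA is not wrapped tightly in nucleosomes, so that reads collect at promoters, enhancers and insulators. In the prostate, secretory luminal cells depend on androgens, which act through androgen response elements in the DNA, and on transcription factors such as the pioneer factor FOXA1 and the homeodomain protein HOXB13. Basal cells, which line the gland beneath them, are marked by the p53 relative p63 and by basal keratins.

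Summits that the caller placed in the same interval were merged into 1 region, and regions with a q-value no higher than 0.01 are called strong. The pileup is the number of reads, each extended to 150 bp around the transposase cut, that stack at the summit. The local background is the number of reads that MACS2 expected there by chance, taken from the surrounding 10 kb but never below the value for the whole genome, which was 12.1 in this list. Fold is the ratio of pileup to local background, each increased by 1. Of 122298 deposited regions, 118154 (96.6%) were strong. They covered 57.9 Mb, or 2.19% of the 2648 Mb of the genome without gaps.

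The sequences below are those to which the motif results and the strongest region between genes by q-value refer. They are on the plus strand of GRCm38 (mm10), RefSeq copy. Each is a 201-bp window inside the region, at its strongest summit or as near to it as annotated exons allowed. Capitals mark a match to the motif named in the line, and in the last line bases that align to the mitochondrial genome.
Hoxb13, before the first exon, NFY, chr11:96194115-96194315: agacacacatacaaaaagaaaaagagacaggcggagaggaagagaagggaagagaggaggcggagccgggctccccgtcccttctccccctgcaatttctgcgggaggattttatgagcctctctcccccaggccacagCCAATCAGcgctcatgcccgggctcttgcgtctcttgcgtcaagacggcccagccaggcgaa
Fkbp5 intron, androgen response element, chr17:28420155-28420355: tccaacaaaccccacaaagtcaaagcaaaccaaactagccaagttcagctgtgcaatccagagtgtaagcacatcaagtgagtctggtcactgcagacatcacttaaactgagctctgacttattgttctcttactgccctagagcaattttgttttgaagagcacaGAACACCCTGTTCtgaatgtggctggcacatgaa
Near Pim3, androgen response element, chr15:88850633-88850833: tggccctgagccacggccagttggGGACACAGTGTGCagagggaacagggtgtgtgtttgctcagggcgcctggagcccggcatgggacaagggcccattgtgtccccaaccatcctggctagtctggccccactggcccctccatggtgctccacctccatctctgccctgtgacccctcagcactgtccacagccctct
Near Scd2, CTCF and NFY, chr19:44266988-44267188: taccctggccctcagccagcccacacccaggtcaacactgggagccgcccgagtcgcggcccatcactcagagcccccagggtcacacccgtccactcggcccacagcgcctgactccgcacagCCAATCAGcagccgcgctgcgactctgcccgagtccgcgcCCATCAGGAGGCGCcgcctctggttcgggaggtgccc
Between genes, strongest, mitochondrial alignment, chr12:97061445-97061645: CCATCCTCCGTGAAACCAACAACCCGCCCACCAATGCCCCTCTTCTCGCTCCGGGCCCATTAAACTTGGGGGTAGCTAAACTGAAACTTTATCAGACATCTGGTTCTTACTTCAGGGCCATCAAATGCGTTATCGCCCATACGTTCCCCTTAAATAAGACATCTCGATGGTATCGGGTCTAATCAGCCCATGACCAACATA

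By position, open chromatin was spread away from promoters in number and concentrated at promoters in signal. A region was a start-site region when it overlapped 1 kb on either side of any annotated transcription start in GENCODE M21. Start-site regions numbered 24186, or 20.5% of strong regions (20.2 to 20.7), against 52775 inside genes (44.7%, 44.4 to 44.9) and 41193 between genes (34.9%, 34.6 to 35.1). Placed by strongest summit, 18.9% lay in start-site windows, which hold 6.05% of the genome, a ratio of 3.12. The ratio was 1.10 inside genes and 0.678 between genes.

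Start-site regions were also wider and higher. Their median width was 696 bp and their median pileup 360, against 295 bp and 76.0 inside genes and 299 bp and 77.0 between genes. They held 52.6% of the summed pileup. Ordered by q-value, the strongest 10% of regions were 74.0% start-site regions, the next 10% 25.5%, and the weakest 10% 11.2%. The weakest 10% had a median pileup of 30.0 and a median width of 180 bp, so a region of that size is near the limit of what this depth could call. Introns held 41.5% of summits, coding exons 1.06% and untranslated exons 1.61%, each within 1.08 to 1.35 times its share of the genome.

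**Figure D1:**
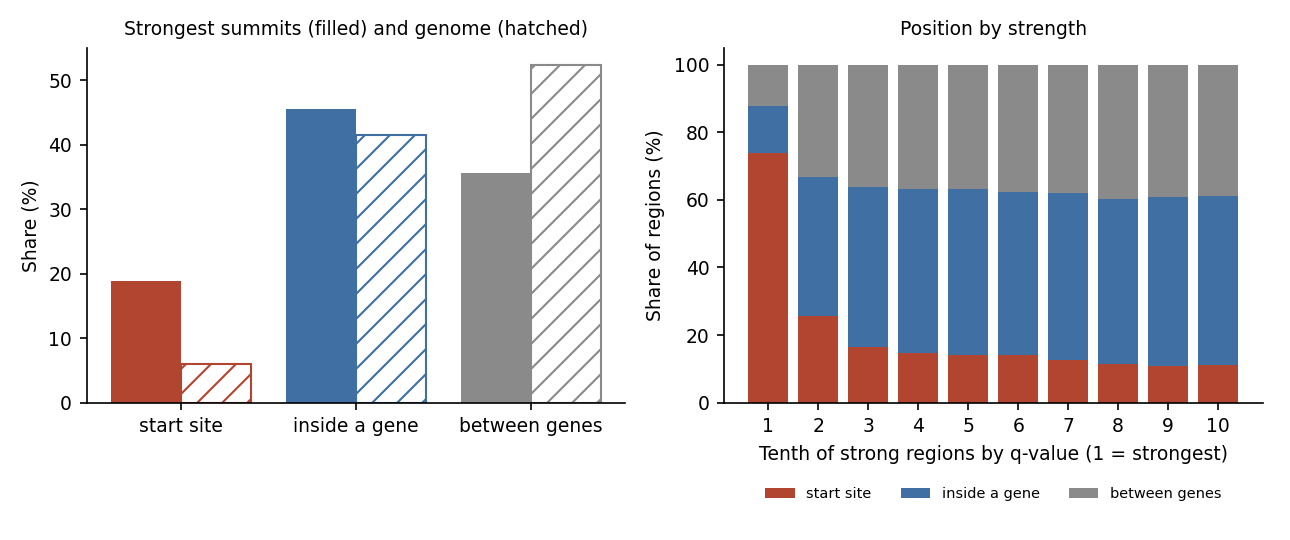
Left, bars give the share (%) of strongest summits (filled) and of the genome (hatched) in start-site windows, inside genes and between genes. Right, stacked bars give the share (%) of the same 3 classes in 10 equal classes of strong regions by q-value. Start-site windows hold 18.9% of summits on 6.05% of the genome, and the start-site share falls from 74.0% in the strongest class to 11.2% in the weakest.

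Among the 5 strongest start-site regions were those at Gm10060 on chromosome 8, with a pileup of 5429 over a local background of 246, and at Cnot4, which encodes a ubiquitin ligase associated with the CCR4-NOT deadenylase complex (4722 over 214). Their folds were 22.0 and 21.9, against a median of 15.5 over all protein-coding start regions. Among the 5 strongest regions inside genes, 1 lay in an untranslated exon of Lars2, the mitochondrial leucyl-tRNA synthetase, at chr9:123461729-123462257 (4130 over 172).

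The strongest region between genes by q-value, though not by pileup or fold, was chr12:97061363-97061855. This region stood alone, 1154983 bp from the nearest protein-coding start (Galc). It had 1 summit, a pileup of 7272 over 201 and a fold of 36.1. Of its 493 bp, 365 aligned to the mitochondrial genome at 99.73% identity, including all of the window shown above. Another of the 5 strongest between genes, chr8:20549843-20550812, had a pileup of 3592 over 162.

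Such alignments were rare. Only 12 strong regions aligned to the mitochondrial genome over at least 100 bp at 90% identity or more, but their median pileup was 1064 against 92.0 for all strong regions, and their median fold 29.1 against 4.79. After chromosome 12 came 3 neighbouring regions on chromosome 2 at the pseudogenes Gm13339, Gm13340 and Gm13341, with pileups of 5553, 3750 and 2465. The authors removed reads mapped to the mitochondrial genome. Whether mitochondrial reads were placed on these nuclear copies was not tested.

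The longest region, chr1:86440248-86443027, measured 2780 bp with 8 summits and lay between genes, 14359 bp from the start of Tex44. The next 4 were at Lncppara (2763 bp), at Runx2, a Runt-family transcription factor of bone (2668 bp, pileup 888), at Ppp2r3d, a phosphatase subunit gene (2644 bp), and between genes at chr4:11088315-11090889 (2575 bp). Length and height did not go together in the last of these, whose pileup was 189. Among strong regions, 62.1% had 1 summit and the highest number was 10.

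Of 21938 protein-coding genes, 13242 had a strong region at a start site, which is 60.4% (59.7 to 61.0) and is the background for every gene list below. At these genes the median pileup of the highest start region was 1114, with quartiles of 533 and 1666. For 21.1% of them the region also covered the start of another protein-coding gene, so that it cannot be assigned to one of the pair.

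The prostate luminal list had 13 of 16 genes (81.2%) with a strong start-site region, none shared with another gene. The median pileup of the 13 was 1010. Levels differed widely between members, which are given in the order of their role.

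Among the transcription factors, Foxa1, a pioneer factor of luminal cells, reached 1197 over 248 in a region of 1899 bp. Hoxb13, the posterior Hox gene of prostate epithelium, reached 1139 over 70.7, with the NFY match shown above. Both were close to the median of open promoters.

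Fkbp5, a co-chaperone of steroid receptors and a classical androgen-induced gene, reached 1828 over 146, with 7 regions at its start sites and 34 in the gene body. Steap2, a metalloreductase, reached 1154, and Slc45a3, a membrane transporter, 129. Tmprss2, an androgen-regulated serine protease, had 5 regions in its body and none at a start.

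Of the luminal keratins, Krt8 reached 1078, whereas its filament partner Krt18 counted as open at only 43 over 12.1, and Krt19 reached 125. The surface proteins Cd24a (1010), Psca (245) and Folh1 (146) were all open. Prom1, a marker of progenitor cells, had 2 regions in its body and none at a start.

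Genes of mature glandular secretion were mostly without a region. Of 14 genes for prostate and seminal vesicle proteins, 2 (14.3%) had a start-site region, and 11 had none anywhere in the gene. The region at Pbsn, the probasin gene whose promoter is a standard androgen-driven promoter of the mouse prostate, had a pileup of 144 over 12.1. The region at Apof (722 over 100) also covered the start of Stat2. Msmb, Sbp, Spink1, Defb50, Pate4, Spinkl and the seminal vesicle genes Svs2, Svs3a, Svs4, Svs5 and Svs6 had no region in body or start, and Tgm4 had 3 in its body.

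The basal list had 11 of 16 genes (68.8%), and the median pileup of the 11 was 280, against 1114 for all open genes. Its members are given by function, a division made after their values were seen and not tested. Among genes of adhesion to the basement membrane, the integrin subunit Itga6 reached 1881 over 128, the plakin Dst 1259 with 50 regions in its body, and the laminin chain Lama3 939. Col17a1 (280), Lamb3 (204) and Itgb4 (91) lay below the lower quartile of open starts, 533. Cav1, the caveolar coat protein, reached 1358, and Ngfr, a neurotrophin receptor, 436. With windows of 500 bp, Col17a1 and Ngfr had no start-site region.

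Of the basal regulators and keratins, Trp63, which encodes p63, had no start-site region, though 7 regions lay in its body. Krt5, Krt15 and Krt17 had none at a start, and Krt14 (35 over 12.1) and the Notch ligand Jag2 (33 over 15.2) counted as open at low pileup. Nrg1, a ligand of ERBB receptors, had 10 regions in its body and none at a start.

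The general epithelial list had 15 of 20 genes. Cldn3, a tight-junction claudin, was the highest at 3518 over 327, followed by Grhl1 (2656), Klf5 (2221) and Grhl2 (1766), transcription factors of epithelia, and by Esrp2 (1546), a splicing regulator. Cdh1, Epcam, Cldn7, St14 and Prss8 had no region at a start. Cdh1, which encodes E-cadherin, nevertheless had 15 strong regions in its body, and St14, a membrane serine protease, had 8. Epcam and Cldn7 had none.

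In the mesenchymal list 10 of 20 genes were open. Fn1, the fibronectin gene, reached 1511, Pdgfra 1358, Twist2 911, Vim, the vimentin gene, 710, and Snai1 607. Zeb1 (72), Snai2 (42) and Col1a2 (35) were weak. Acta2, Cdh2, Col3a1, Dcn and Fap, with 5 further genes, had no start-site region.

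The neuroendocrine list had 4 of 12 genes (33.3%). Ncam1 reached 556, the granins Chgb 290 and Chga 135, and the Notch ligand Dll3 45. Insm1, Neurod1, Foxa2, Sox2 and Nkx2-1, transcription factors of neuroendocrine tumours and of other lineages, had no region in start or body.

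**Figure D2:**
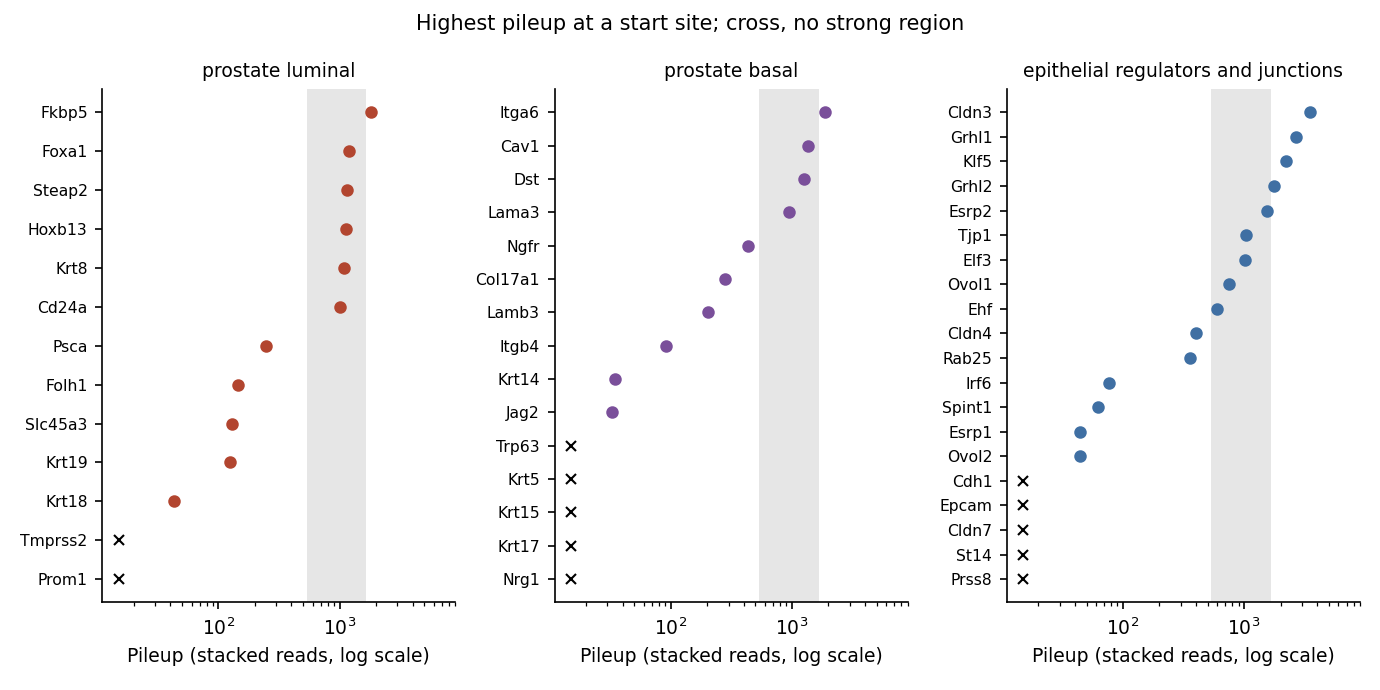
Points give the highest pileup (stacked reads, log axis) at a start site of genes of the prostate luminal, prostate basal and epithelial lists, and crosses mark genes without a strong start-site region. The grey band spans the quartiles of all open protein-coding starts, 533 and 1666. Fkbp5 (1828) and Itga6 (1881) stand just above the band, and Krt18, Krt14 and Jag2 lie far below it.

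Lists of other tissues ran from far below the background of 60.4% to near it. Pancreas had 2 of 16 genes open, hepatocyte, lymphoid and endothelium 3 of 16 each (18.8%), neuron, intestine and germ line 5 of 16 each (31.2%), pluripotency 6 of 16 (37.5%), muscle 8 of 16, lung 8 of 15 (53.3%) and myeloid and erythroid genes 9 of 16 (56.2%). The last 3 were close to the background, but with windows of 500 bp the myeloid and erythroid count was 5, against 57.6% of all protein-coding genes. Counts of several other lists also changed with the window, as given at the end. In 8 of these 11 lists the median pileup of the open members was 148 or less, against 1114 for all open genes.

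Among the weakly open genes were Ttr (159), Apoa1 (136) and Apob (111), carrier and lipoprotein genes of the liver. With windows of 500 bp, none of these had a start-site region. Alb and Hnf4a had no start-site region, although 10 strong regions lay in the body of Hnf4a. Of the intestinal genes, Lgr5, a stem cell receptor, reached 192 and Vil1 77, with Cdx2 without a region. Myod1, Myf5 and Myog, the muscle-determining factors, had none at a start.

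A few genes of other lineages were as open as housekeeping promoters. Mafa, a beta-cell transcription factor, reached 3020, Stra8, a gene of meiotic entry, 2101, Klf2 1992, Klf1, the erythroid Krüppel-like factor, 1910, and Foxj1, a regulator of motile cilia, 1049. For Mylpf (2065), Gdf9 (2578) and Foxp3 (711), the region also covered the start of another protein-coding gene, Tbc1d10b, Uqcrq and Ppp1r3f respectively.

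All 16 housekeeping genes were open, with a median of 1488 and a range from 652 to 2636, the latter at Actb. For 3 of them, among them Sdha, which had the lowest value, the region also covered the start of another protein-coding gene. The list of tumour genes had 17 of 20. Cdkn2a, the locus of p16 and p19ARF, reached 2200, Brca1 2162, Ccnd1 1206, Rb1 872 and Trp53 858. The region at Brca1 also covered the start of Nbr1, and that at Trp53 the start of Wrap53. Mycn, Erg and Etv1 had no start-site region. Myc, whose transgene drives the tumours from which this line was made, reached 1461 over 270 at the endogenous gene.

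**Figure D3:**
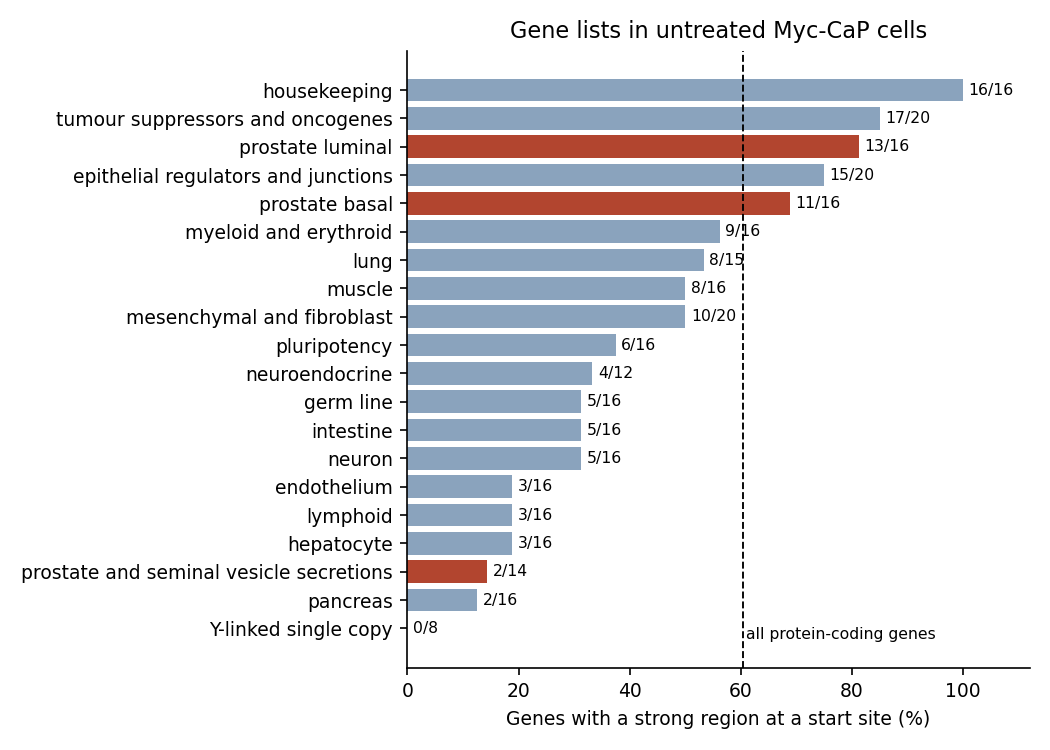
Bars give the share (%) of each gene list with a strong region at a start site, with the count beside each bar. The dashed line is the share of all protein-coding genes, 60.4%. The luminal list (13/16) lies above the line, as do the housekeeping, tumour, epithelial and basal lists. The secretion list (2/14) and the lists of pancreas, hepatocyte, lymphoid cells and endothelium lie far below it.

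Counted by gene body, a protein-coding gene held a median of 2.00 strong regions, and 28.2% held none. Gm20388 (738 regions over 4435 kb) and Fgfr2 (308 over 2961 kb) led the count, but both are annotation models that run across many other genes, so that most of these regions cannot be assigned to them. Gm37240 (117 over 1391 kb) and Pde4d, a cAMP phosphodiesterase (93 over 1504 kb), followed.

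Others among the 10 genes with most regions were Zbtb20, a zinc-finger repressor (87), Kalrn, a guanine nucleotide exchange factor (74), Lpp, an adhesion protein (72), Prkce, a protein kinase C isoform (66), and Kcnma1, a calcium-activated potassium channel (65). Per 100 kb, among genes of at least 20 kb, the median was 7.19, and the 10 densest included Usp2, a deubiquitinase, at 45.4, Mmp28 (44.8), Sorbs3 (44.4), Pole2 (41.6), Glipr2 (41.4), Mgat4b (41.3), Tmem44 (41.0) and Slc43a2 (39.2).

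When regions no more than 12500 bp apart were joined, 2473 clusters held at least 10 regions, and together they held 34.9% of strong regions.

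Among the 5 largest by covered bases, the cluster chr2:167450788-168081565 held 143 regions around Ptpn1, a tyrosine phosphatase gene. A second, chr8:123538452-123909135, held 155 regions, 78 of them at start sites, and contained 51 annotated genes of class rRNA, of which 50 had a strong start-site region with a median pileup of 414. These are near-identical copies, and how reads were divided between them cannot be told from the list. Another, chr10:79625817-79969580, held 70 regions and 26 protein-coding genes, Arid3a among those with most regions. A further large cluster, chr6:30974577-31233656 (82 regions, chosen after its values were seen), contained no protein-coding gene but Lncpint, a p53-regulated long noncoding RNA gene with 44 regions, and Mir29a.

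The local background was at the genome value, which is also its lower limit, in 47.9% of deposited regions, to within 0.05 reads. On the autosomes its median was 1.05 times the genome value and its upper quartile 2.38 times. In 1-Mb bins with at least 5 regions, the 20th percentile of the local background was set against the genome value of 12.1. Of 2015 bins, 4 (0.199%) were at or above 1.5 times that value, and 1881 of 1914 autosomal bins (98.3%) were at 1.00 times it to 3 digits. Lower values are set to the genome value, so differences between bins below it cannot be seen. This percentile describes the lowest values of a bin, and judged by their median more bins were raised, as given at the end. Of the raised bins, 2 stood alone. The bin from 41 to 42 Mb of chromosome 7 had 9 regions at 3.02 times, and the bin from 90 to 91 Mb of chromosome Y had 16 regions at 2.24 times. Followed region by region, a measure chosen after seeing the data, runs of at least 20 neighbouring regions above 1.5 times included chrX:169986531-170022423, with 21 regions at a median of 7.16 times over Mid1 and Gm21887. The local background is averaged over 10 kb and includes the reads of the regions themselves. Copy number was not measured, and more copies and more reads per copy cannot be told apart in these values.

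By chromosome, strong regions were densest on 11 (77.8 per Mb) and 19 (66.4), and sparsest on X (20.4) and Y (0.647). None of 8 single-copy Y-linked genes (Kdm5d, Eif2s3y, Uty, Ddx3y, Zfy1, Zfy2, Usp9y, Sry) had a region at a start or in the body. Of the 57 strong regions on Y, 43 lay mainly in repeats and 16 in the last raised bin, and 1 region was in neither set. The labels give the line as male, and the cause of the low count was not tested.

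Matches to known binding motifs were distributed differently between promoters and distal regions. Exact matches on both strands were counted within 100 bp of each strongest summit and compared with 264755 windows of 201 bp placed every 10 kb of the genome. Of strong regions, 21.4% (21.2 to 21.6) held the AP-1 motif TGANTCA, bound by FOS and JUN proteins, against 6.02% of genome windows. Away from start sites the share was 23.8%, a ratio of 3.95, and at them the ratio was 2.00. The letters reversed but not complemented, a control of similar base composition, gave a ratio to the genome of 1.28, against 3.55 for the motif.

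The CTCF motif, bound by the insulator protein CTCF, had the highest ratio among motifs with at least 100 genome windows. It was held by 5.34% of regions and 0.191% of windows, a ratio of 27.9 that depended on the window, at 53.5 within 50 bp of the summit and 13.7 within 200 bp. Away from start sites, regions with it had a median pileup of 111 against 74.0 without it, and a median width of 284 bp. The RUNX motif TGTGGTT was held by 9.33% of regions, a ratio of 2.01. TEAD (ACATTCCA) had a ratio of 1.95 and the forkhead motif TGTTTAC 1.55.

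The androgen response element was held by 2420 regions (2.05%, 1.97 to 2.13) against 0.326% of genome windows, a ratio of 6.28, and 1.27 for the reversed letters. Away from start sites, where 2156 of them lay, regions with the element were higher and wider than others, with a median pileup of 110 against 76.0 and a median width of 514 bp. Among the 16 luminal genes and 5 kb around each, 1 gene had any. Of 36 regions at Fkbp5, 3 held the element, and the highest of these reached 1354. Chromosome 18 was left out of the search for the strongest such region. On the other chromosomes, the strongest by q-value away from start sites lay nearest to Pim3, a serine/threonine kinase gene. It is shown above and had a pileup of 2791.

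Motifs of general promoter factors were concentrated at starts. KLF/SP sites (GGGGCGGGG) were in 11.5% of start-site regions and 1.03% of others, ETS sites (CCGGAAGT) in 3.86% and 0.278%, and NFY sites (CCAATCAG) in 3.41% and 1.50%. The E-box of Myc (CACGTG) was in 6.10% and 3.66%, and its reversed letters had a ratio of 1.60 against 2.15 for the motif. NRF1 sites were in 0.678% of start-site regions, but only 33 genome windows held one. Start-site regions had a median of 55.2% G and C bases, against 48.2% inside genes and 48.1% between genes. The genome held 41.7%. How far base composition contributes to these shares was not tested. The ETS letters reversed had a ratio of 1.30 against 8.26 for the motif. KLF/SP reads the same reversed, and no genome window held reversed NRF1, so both lack this control. Some motifs were found less often than in genome windows. The ratio was 0.558 for AGATAAG of GATA factors, 0.396 for CCAATAAAA of posterior HOX proteins, 0.729 for the POU octamer, ATGCAAAT, and 0.845 for CAAAGTCCA of HNF4. The reversed letters were also below the genome windows for all of these, at 0.472 for GATA, 0.427 for posterior HOX, 0.471 for the POU octamer and 0.861 for HNF4. A match is a stretch of letters and was not tested for binding.

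**Figure D4:**
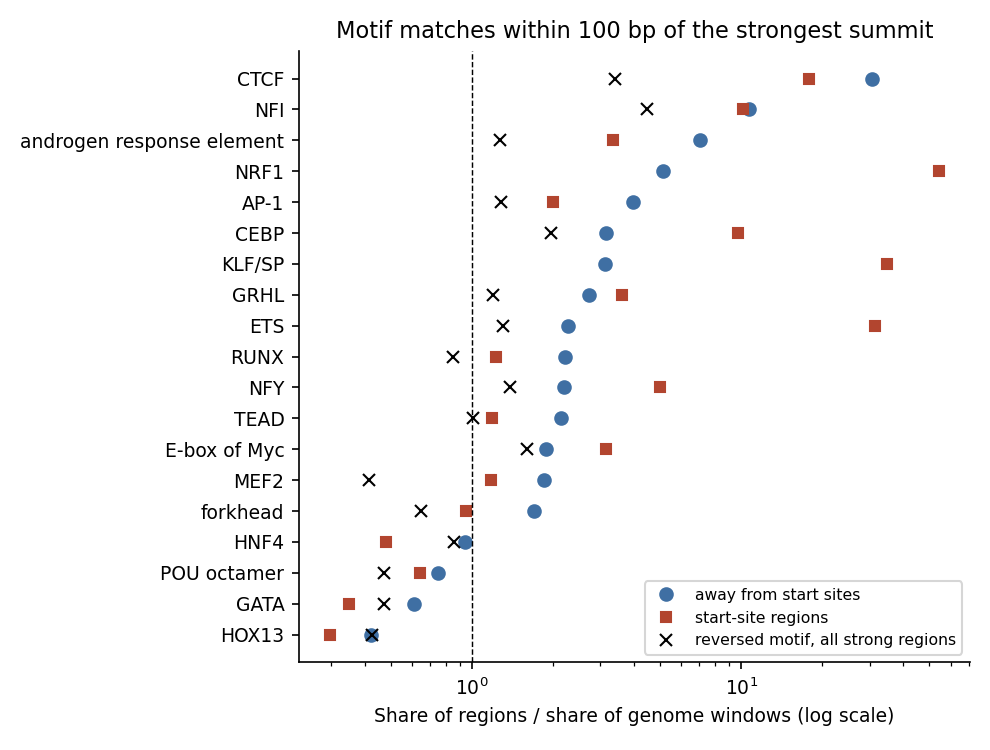
Points give the share of strong regions with a motif within 100 bp of the strongest summit over the share of genome windows (log axis), for regions away from start sites (circles) and at start sites (squares), and crosses give the reversed letters over all strong regions. The dashed line marks equal shares. CTCF, the androgen response element and AP-1 lie further right away from start sites, and NRF1, KLF/SP and ETS at start sites.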

How the data were processed

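ATAC-seq libraries of untreated cells (Ctrl, 2 libraries) were analysed as 1 deposited peak list. The authors trimmed adapters with cutadapt, aligned reads to mm10 with Bowtie2 (2.2.8, per the submitters' processing notes), filtered poorly mapped, duplicate and mitochondrial reads, pooled the libraries and called peaks with MACS2 (2.1.0) without a control library at a p-value of 0.01. The deposited fold is a ratio of pileup to background, and each summit also has a deposited −log10 p-value and, from the same run by the authors, a −log10 q-value. Peak lists of the treated groups were not used, and for depth the study's methods state only a minimum number of read pairs, so the total of each library was not used here.

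Whole-number pileup and background were solved from fold and p for 100% of 201223 summits, and 100% of 20000 simulated summits were recovered. Positions came from GENCODE M21 and the GRCm38 sequence, using Python 3.11.15, numpy 2.4.6, pandas 2.3.3, scipy 1.17.1, matplotlib 3.10.9 and blastn 2.17.0. No comparison between groups was made, so no test was run. Alternatives for thresholds, windows, bins and rankings are given at the end.

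Named items were the 5 strongest regions of each class, the 5 longest, the 10 genes with most regions and the 10 densest, the 5 largest clusters, raised segments, Myc, all luminal, basal and Y-linked genes and, for other lists, up to 5 highest and 5 without a region. Some further list members were named after their values were seen. Results for some of these genes and regions, and for the run of raised background, are not reported here. The members and lists were chosen with earlier results of these data known.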

Additional observations from a re-analysis of the deposited data

How the results depend on the processing

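Counts and shares depend on thresholds that the text names. The start-site share of regions (20.5%) was 21.8% at a q-value of 1e-05 and 20.2% for all deposited regions. It was 16.3% with a 500-bp window, 27.0% with 2 kb, 18.9% by summit and 16.6% with protein-coding starts only. The share of protein-coding genes with a start-site region (60.4%) was 59.2% at a q-value of 1e-05, 57.6% with 500 bp, 64.5% with 2 kb and 59.0% by summit. The luminal count of 13 ranged from 12, without Krt18 at 500 bp, to 14, with Tmprss2 at 2 kb.

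The count of runs of 2 or more neighbouring raised bins (1) became 2 with 500-kb bins, 37 with the median in place of the 20th percentile and 0 with isolated regions only. In that setting 1857 of 2015 bins could be tested, none of the 4 raised bins among them, so the 0 says nothing about these. Ranked by fold, 0 of the 15 strongest regions remained, against 13 by pileup. Of 114 other list counts, 101 stayed within 1.5 times, and most that moved did so with the window. At 500 bp the count fell from 9 to 5 for myeloid and erythroid genes, from 6 to 3 for pluripotency, from 5 to 3 for neuron, 2 for germ line and 1 for intestine, and from 3 to 0 for hepatocyte. At 2 kb it was 6 for hepatocyte, 5 for lymphoid and 7 for endothelium, each 3 before. All 38 motif shares moved with the window, and at 50 and 200 bp on either side of the summit the ratio was 53.5 and 13.7 for CTCF, 5.62 and 2.21 for AP-1, and 8.64 and 3.93 for the androgen response element.

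No paired analysis was possible because both Ctrl libraries entered 1 pooled list. Leaving out each library was not run for the same reason.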

Other observations

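Large gene families ranged from almost none to all of their members open. Of 1093 olfactory receptor genes 30 (2.74%) had a strong start-site region, and of 327 vomeronasal receptor genes 4 (1.22%). By contrast, 78 of 81 cytosolic and 78 of 78 mitochondrial ribosomal protein genes, 37 of 39 proteasome genes and 65 of 67 replication-dependent histone genes were open, the last with a median pileup of 1451. Between these lay 215 of 334 solute carrier genes (64.4%), near the share of all protein-coding genes, 23 of 44 collagen genes (52.3%), 10 of 23 claudin genes (43.5%) and 25 of 93 cytochrome P450 genes (26.9%). Of 39 Hox genes 16 were open, 6 of 11 in HoxA, 3 of 10 in HoxB, 3 of 9 in HoxC and 4 of 9 in HoxD. Hoxb13 was the highest of HoxB. In HoxC the highest pileup was 82, against 1376 in HoxA. Of 49 keratin genes 13 were open, led by Krt80 (1189) and Krt8 (1078).

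Some of the longest genes had no strong region at all. They include Ptprd (2271 kb), Fhit (1612 kb), Pcdh15 (1550 kb), Auts2 (1106 kb) and Erbb4 (1076 kb). The gap from 86616297 to 89920899 on chromosome 2, 3.30 Mb without a strong region, holds 151 protein-coding genes, of which 146 are olfactory or vomeronasal receptor genes. Noncoding genes were less often open than protein-coding ones, at 23.1% for lincRNA genes and 7.91% for processed pseudogenes, whereas 79.5% of bidirectional promoter lncRNA genes were open with a median pileup of 1390.

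The pileup at open protein-coding starts, compared by chromosome after seeing the data, had a median of 1064 over 11891 regions. It was lowest on chromosome X (747, or 0.702 times) and highest on chromosome 12 (1334). Over 203 windows of 10 Mb it ran from 0.384 times, at 140 to 150 Mb of chromosome X, to 1.72 times, at 20 to 30 Mb of chromosome 11. The cause was not tested.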
